A study of Homo sapiens with 6 samples.

Results

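The matrix metalloproteinases MMP1, MMP3, MMP7, MMP8, MMP10, MMP12 and MMP13 are encoded side by side on chromosome 11q22, and their RNA was followed across 6 arrays of breast cancer cells in which the long noncoding RNA LincIN had been targeted. The 7 genes were chosen by name as members of this cluster around MMP1, whose lower signal in the LincIN shRNA cells was already known from these arrays. The differences between shRNA and vector cells are therefore given for them as a description, with no p, and the counts of calls further on stand only beside those over all genes. A probe set with that single gene name was found for 5 of the 7 genes, 1 probe set each, among 16098 named probe sets of 14884 genes. For MMP3 and MMP7 no probe set carried the gene name, and they are not described further.

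The cells were MDA-MB-231-Luc-D3H1, human triple-negative breast cancer cells of the MDA-MB-231 line that express luciferase. The paper's account of the arrays names only MDA-MB-231 cells, and its methods describe the stable luciferase lines under the mouse experiments. All 3 groups were stable lines of these cells, and each group gave 2 arrays (Affymetrix Human Gene 2.0 ST), labelled replicates 1 and 2. The vector group carried the empty GFP vector (pMKO.1-GFP, as the methods name the shRNA backbone), and the other groups carried shRNA1 or shRNA2 against LincIN in it. The series text places the RNA in 2 independent experiments. Each shRNA is thus 1 line against a single control line, no line carried a non-targeting hairpin, and neither the labels nor the methods say whether the lines were clones or pools. Differences between lines that arose for other reasons cannot be told apart from the effect of an shRNA. The level of LincIN itself was not analysed here, so the knockdown could not be read from these arrays.

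Matrix metalloproteinases are secreted as inactive proenzymes, are activated by removal of the propeptide, and are held in check by tissue inhibitors (TIMPs). The collagenases MMP1, MMP8 and MMP13 cut the triple helix of fibrillar collagens. MMP3 and MMP10 are stromelysins, which degrade many other matrix proteins and activate other proenzymes, MMP7 is the small matrilysin, and MMP12 is the metalloelastase known from macrophages. MMP8 was first described as the collagenase of neutrophils, and MMP1 is known to be made by invasive breast cancer cells, MDA-MB-231 among them. Transcription of several of these genes is induced through AP-1 sites, bound by FOS and JUN proteins, and through neighbouring sites for ETS and RUNX factors.

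Promoter sequences were available for MMP7, MMP8 and MMP10 among the members. The 250 bases before the annotated start of MMP8 and MMP10 are shown because MMP8 had a large difference between vector and shRNA cells and MMP10, between MMP8 and MMP1 in gene order, had none of that size. Both are read on the minus strand of GRCh38.p14 (RefSeq), from chr11:102724955-102725204 for MMP8 and chr11:102780629-102780878 for MMP10, with matches to the AP-1 motif TGANTCA in capitals.
MMP8: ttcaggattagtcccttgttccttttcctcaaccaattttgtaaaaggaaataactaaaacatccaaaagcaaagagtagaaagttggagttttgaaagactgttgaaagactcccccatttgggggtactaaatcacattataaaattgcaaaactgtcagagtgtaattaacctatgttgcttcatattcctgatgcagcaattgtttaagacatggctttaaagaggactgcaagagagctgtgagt
MMP10: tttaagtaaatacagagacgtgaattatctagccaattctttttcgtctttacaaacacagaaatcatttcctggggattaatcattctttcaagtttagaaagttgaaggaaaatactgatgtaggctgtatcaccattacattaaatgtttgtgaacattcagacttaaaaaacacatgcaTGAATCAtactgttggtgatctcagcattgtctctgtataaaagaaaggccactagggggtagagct
The MMP8 window held 0 matches and the MMP10 window 1, whose first base lies at -67 from the start. The window of MMP7 also held 1 match, at the same distance. The motif reads the same on both strands, and 6.57% of the 35116 promoter windows of this length held it. MMP1, MMP3, MMP12 and MMP13 had no entry among the promoter sequences used here.

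The values are log2 signals after RMA, a normalization that makes arrays comparable for 1 probe set but does not put different probe sets on 1 scale. The arrays had medians between 6.12 and 6.30 and lower quartiles between 4.92 and 5.05, and they carry no call of which probe sets were detected. Differences are given as shRNA minus vector, so negative values stand for genes with less signal in the shRNA lines. The study's supplementary list of array hits, whose fold column is headed as shRNA over vector, gives the opposite direction for MMP1 and MMP8, and the direction used here follows the sample names of the deposited values. LincIN was not measured here to check those names. Exchanging the vector name with that of 1 shRNA would turn the sign of MMP1 for that shRNA only. For the other shRNA, the MMP1 difference would then be the one between the shRNAs, 0.03 in size. Why the list gives the opposite direction was not tested. Over all named probe sets, the median difference was 0.05 for shRNA1 minus vector and -0.04 for shRNA2 minus vector. Of the markers of this mesenchymal-like line, 5 of 7 genes were named, with 7 probe sets, and 0 passed in either comparison with vector (limma, 2 and 1 at an unadjusted p under 0.05). The share of all named probe sets at that unadjusted cut against vector was not counted, so no excess is read from such counts. This holds for the lists and flanking genes below too. AXL lay between 12.66 and 13.14 on all arrays. The repressor ZEB1 was below both vector arrays with both shRNAs (-0.54 and -0.44, limma, adjusted p = 0.192 and 0.195), and so was MSN (-0.15 and -0.28). Arrays below both vector arrays were seen for 15.0% of all named probe sets with shRNA1 and 30.6% with shRNA2. The other marker genes did not lie below with both: AXL had 0.27 and 0.16, CD44 0.50 and -0.07, and VIM 0.05 and -0.14 at its brightest probe set. Of 9 luminal or epithelial markers 8 were named, with 9 probe sets, and 0 passed (limma, 2 and 2 at an unadjusted p under 0.05). The estrogen receptor gene ESR1 lay between 5.71 and 6.17, but the keratin KRT18 reached 11.65 at its brighter probe set. The other KRT18 probe set lay between 7.35 and 8.28. The adhesion gene EPCAM had differences of -0.42 and 0.74 (limma, adjusted p = 0.674 and 0.243). In opposite directions, GATA3 had 0.66 and 0.42 (limma, adjusted p = 0.376 and 0.458) and ERBB3 -0.53 and -0.59 (limma, adjusted p = 0.226 and 0.114).

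MMP1, the interstitial collagenase, had the lowest difference of all 16098 named probe sets with both shRNAs. Its log2 signal was 10.58 and 9.09 on the vector arrays, 5.00 and 5.18 with shRNA1, and 5.13 and 5.10 with shRNA2. The 4 shRNA arrays lay together, near the lower quartile of all values on an array, and far below both vector arrays. The log2 difference from vector was -4.74 with shRNA1 (SE 0.42, n = 2 and 2 arrays), which is 26.8-fold lower, and -4.72 with shRNA2 (SE 0.42), 26.3-fold lower. The vector arrays differed from each other by more than the shRNA arrays did: without vector replicate 1 the differences were -4.00 and -3.97, and without vector replicate 2 they were -5.49 and -5.46. Since a signal near 5 could not be told from background, the folds may understate the difference. On bulk RNA, fewer cells with MMP1 RNA and less of it per cell cannot be told apart.

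MMP8, the neutrophil collagenase, was the other gene of the cluster with a large difference. It had log2 signals of 8.65 and 7.70 on the vector arrays, 5.76 and 4.85 with shRNA1, and 5.49 and 5.52 with shRNA2. All 4 shRNA arrays lay below both vector arrays, as for MMP1, but the lowest and highest shRNA values of MMP8 were both shRNA1 arrays. The log2 difference was -2.87 with shRNA1 (SE 0.37, 7.31-fold lower), rank 10 from the lowest of all named probe sets, and -2.67 with shRNA2 (SE 0.37, 6.36-fold lower), rank 14. The shRNA values of MMP8 lay under 5.87, the lowest quartile of the named probe sets, so these folds may be understated too and the ranks are uncertain. Without vector replicate 1 these became -2.39 and -2.19, and without vector replicate 2 -3.35 and -3.15.

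MMP13, the third collagenase, which prefers type II collagen, lay low on every array and showed no such gap. Its log2 signals were 4.65 and 4.22 on the vector arrays, 4.39 and 3.97 with shRNA1, and 4.38 and 4.52 with shRNA2. The 3 groups overlapped, and the differences from vector were -0.25 with shRNA1 and 0.02 with shRNA2 (SE 0.21 each). The small shRNA2 difference was -0.01 after the arrays were quantile normalized again.

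The stromelysin MMP10 and the metalloelastase MMP12 lay low on every array too. MMP10 gave 3.99 and 4.20 on the vector arrays, 4.17 and 4.27 with shRNA1, and 3.86 and 4.06 with shRNA2, with differences of 0.13 and -0.13 (SE 0.16 each). Both shRNA groups overlapped the vector arrays. MMP12 gave 4.78 and 4.38 on the vector arrays, 4.76 and 4.85 with shRNA1, and 4.90 and 4.89 with shRNA2, with differences of 0.23 and 0.31 (SE 0.18 each). The shRNA2 arrays of MMP12 were above both vector arrays, which was also so for 21.6% of all named probe sets. MMP10, MMP12 and MMP13 had means under 5.87, the lowest quartile of the named probe sets, so a filter on dim probe sets kept only MMP1 and MMP8 of the 5 genes.

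**Figure D1:**
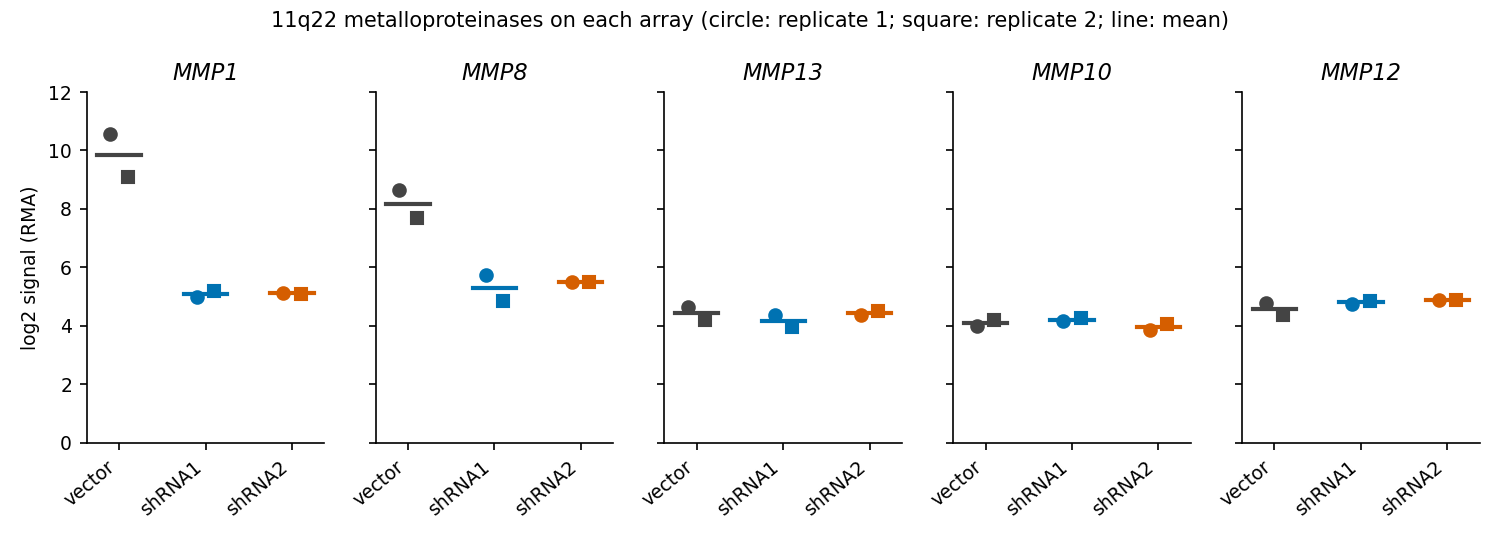
Log2 signal (vertical axis, RMA) of the 5 measured 11q22 metalloproteinases, 1 panel a gene, on the vector, shRNA1 and shRNA2 arrays. Circles are replicate 1, squares replicate 2 and lines group means of 2 arrays; MMP1 and MMP8 are high on the vector arrays only, and MMP10, MMP12 and MMP13 stay between 3.86 and 4.90 throughout.

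The counts over the members read as follows, with the share of all named probe sets beside each, and nothing is drawn from them since the members were chosen with these contrasts known. With shRNA1, 2 of the 5 genes had a lower signal at an adjusted p under 0.05 (limma, Benjamini-Hochberg over all named probe sets), against 1.37% of all named probe sets lower, and 0 of 5 had a higher signal, against 0.497%. With shRNA2, 2 of 5 were lower, against 1.50%, and 0 of 5 higher, against 1.07%. The genes were MMP1 and MMP8 both times. Arrays lying below both vector arrays were seen for these same 2 of 5 genes with each shRNA, and for 15.0% of all named probe sets with shRNA1 and 30.6% with shRNA2. For the arrays the methods name BRB-ArrayTools and no test. The test taken from the methods below is one they name for in vitro data, so it is no repeat of the paper's own array analysis. Without shRNA2 replicate 1 or replicate 2, neither gene passed with shRNA2, and in the methods' t-test, which takes no spread from other probe sets, neither passed with either shRNA. MMP8 alone fell out with shRNA1 in the fit of 4 arrays and when shRNA1 replicate 2 or 1 of the shRNA2 arrays was removed, with shRNA2 when vector replicate 1 was removed, and with both shRNAs when unnamed probe sets were added.

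The rule did not use the comparison of the hairpins with each other, so it was tested. On both sides of this comparison all 5 genes lay under 5.87, near background, so a difference had little room to show. None of the 5 genes differed between shRNA2 and shRNA1 at an adjusted p under 0.05, against 0.00621% of all named probe sets, and 0 of 5 had an unadjusted p under 0.05 in limma, against 15.6%. In the methods' t-test 0 of 5 passed, against 0.0124%. For MMP1 the difference, shRNA2 minus shRNA1, was 0.03 on the log2 scale, with a 95% interval from -0.96 to 1.01 (limma, adjusted p = 0.984). For MMP8 it was 0.20 (interval -0.68 to 1.08, limma, adjusted p = 0.837), and it turned to -0.25 without shRNA1 replicate 2. These intervals leave room for differences between the lines of up to about 1 on the log2 scale, so they do not show equal levels. For MMP13 the difference was 0.27 (interval -0.23 to 0.78, limma, adjusted p = 0.586), for MMP12 0.08 (-0.33 to 0.50, limma, adjusted p = 0.857) and for MMP10 -0.26 (-0.64 to 0.12, limma, adjusted p = 0.483). The arrays of the hairpins did not overlap for MMP10, lower with shRNA2, and MMP12, higher with shRNA2, as for 50.2% of all named probe sets.

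The genes also differed in how far the replicates of 1 group lay apart. On the vector arrays, MMP1 was lower by 1.49 in replicate 2 than in replicate 1, a size exceeded by 0.497% of the named probe sets, and MMP8 by 0.95, exceeded by 2.8%. MMP13 and MMP12 were also lower in vector replicate 2, by 0.43 and 0.40, and MMP10 was higher by 0.21. With shRNA1, MMP8 again was lower in replicate 2, by 0.90 (exceeded by 3.06% of probe sets), whereas MMP1 was 0.19 higher. With shRNA2, the sizes for the 5 genes ran from 0.01 for MMP12 to 0.20 for MMP10. The SD of the replicate difference over all named probe sets was 0.397 for vector, 0.395 for shRNA1 and 0.231 for shRNA2, so the vector arrays of MMP1 and MMP8 were among the least alike replicate values measured.

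The stretch from MMP7 to MMP13 holds 16 annotated genes in RefSeq (GRCh38.p14), in the order MMP7, MMP20, MMP27, MMP8, MMP10, MMP1, MMP3, MMP12 and MMP13 for the metalloproteinases. MMP8 and MMP1, with differences of -2.87 and -4.74, thus have MMP10 between them, at 0.13 with shRNA1. Of the metalloproteinases that were not members, MMP20, the enamelysin of tooth enamel, had signals of 5.85 and 5.60 on the vector arrays, 6.14 and 5.95 with shRNA1, and 5.86 and 6.04 with shRNA2. Its shRNA arrays were all above the vector arrays, but the differences of 0.32 (limma, adjusted p = 0.544) and 0.22 (limma, adjusted p = 0.552) did not pass. MMP27 gave 4.79 and 4.16 on the vector arrays, 4.87 and 4.80 with shRNA1, and 4.54 and 4.70 with shRNA2, and its differences of 0.36 and 0.14 did not pass either (limma, adjusted p = 0.617 and 0.795). WTAPP1, a transcribed pseudogene listed between MMP10 and MMP1, stayed between 5.45 and 5.76 on all arrays (differences -0.20 and -0.11, limma, adjusted p = 0.706 and 0.764).

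Outside the cluster, the 10 nearest genes with a named probe set on each side were taken, which with WTAPP1 gave 21 genes and 23 probe sets. By limma, 0 of the 23 passed in either comparison with vector, and 3 with shRNA1 and 6 with shRNA2 had an unadjusted p under 0.05. Without the share of all named probe sets at that cut, these counts show no excess. Their differences ran from -0.64 to 0.54 with shRNA1 and from -0.81 to 0.61 with shRNA2, with medians of 0.00 and -0.02 beside medians of 0.05 and -0.04 over all named probe sets. ARHGAP42 had one of the brightest probe sets of these genes, with signals of 11.12 and 10.16 on the vector arrays, 10.56 and 9.93 with shRNA1, and 9.86 and 9.80 with shRNA2. Its differences were -0.39 and -0.81 (limma, adjusted p = 0.747 and 0.260). YAP1, the Hippo pathway coactivator, had differences of -0.12 and -0.39 at its brighter probe set (limma, adjusted p = 0.872 and 0.272). PDGFD, a platelet-derived growth factor named after its values were seen, went from 6.67 and 6.54 on the vector arrays to 6.0 and 5.92 with shRNA1 and 6.0 and 5.70 with shRNA2. Its differences of -0.64 and -0.76 had an adjusted p of 0.144 and 0.066 in limma, and the second was 0.025 in the fit blocked on replicate number. Other flanking genes went the other way, with all shRNA arrays above both vector arrays. CFAP300 had the highest differences, 0.54 and 0.61 (limma, adjusted p = 0.35 and 0.18), and ELMOD1 had 0.43 and 0.45 (limma, adjusted p = 0.41 and 0.25).

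**Figure D2:**
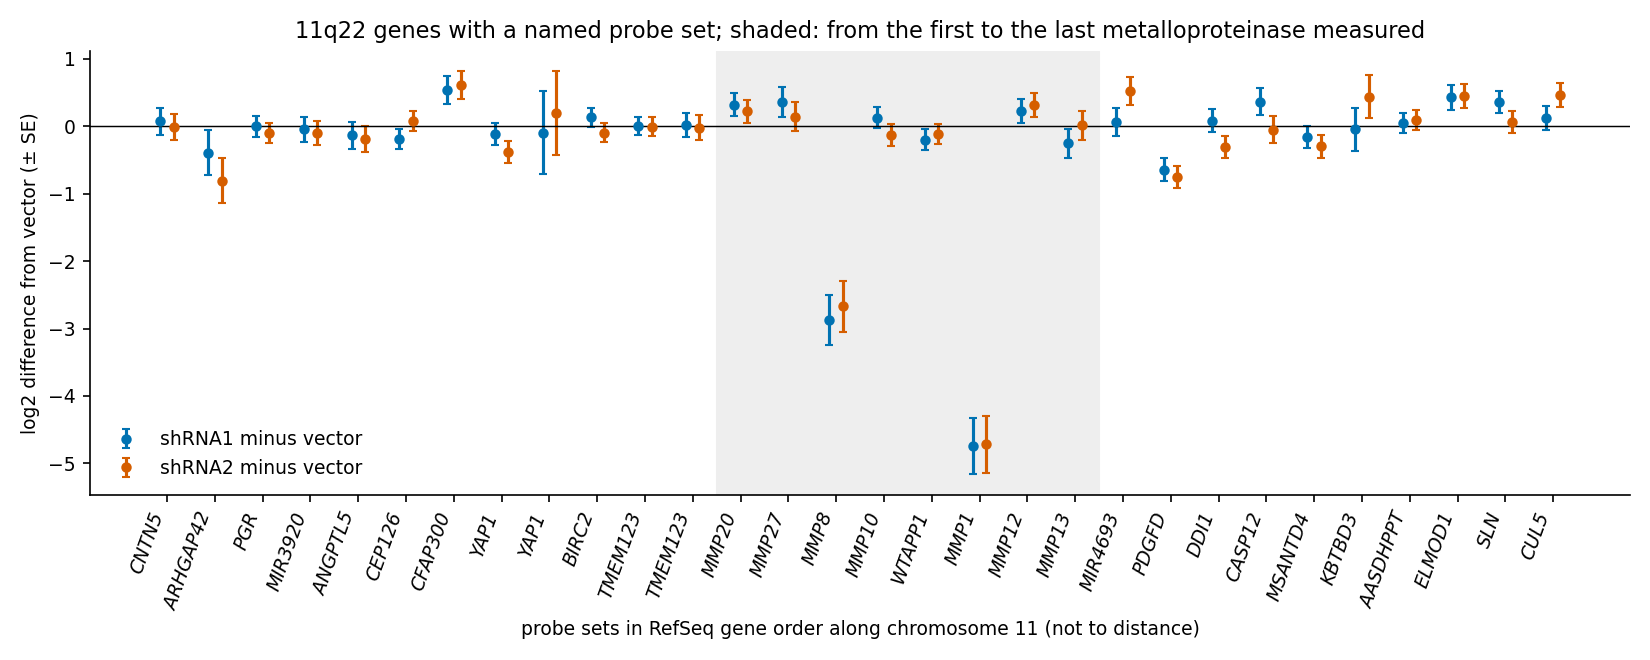
Log2 difference from vector (vertical axis, fitted value ± SE, 2 arrays a group) of every named probe set of the 11q22 stretch and its flanks, in RefSeq gene order (horizontal axis, not to distance). The shaded block runs from MMP20 to MMP13; MMP8 (-2.87 and -2.67) and MMP1 (-4.74 and -4.72) stand below all other probe sets, which lie between -0.81 and 0.61.

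The proteins that act on collagenases were taken as lists: inhibitors, activators and surface partners, transcription factors, inducing ligands and receptors, and substrates. All 6 inhibitor genes were named, with 7 probe sets, and by limma 0 passed with either shRNA (3 with each at an unadjusted p under 0.05), with median differences of 0.12 and 0.22. TIMP1, a secreted inhibitor of the collagenases, had signals of 11.65 and 11.61 on the vector arrays, 12.12 and 12.20 with shRNA1, and 12.03 and 11.95 with shRNA2. All its shRNA arrays were above the vector arrays, but the differences of 0.53 and 0.36 did not pass (limma, adjusted p = 0.164 and 0.234). TIMP3, the inhibitor held in the matrix, had differences of -0.41 and 0.20 at its brighter probe set (limma, adjusted p = 0.410 and 0.604). With the replicate block, RECK, a membrane-anchored inhibitor (0.67, limma, adjusted p = 0.082, blocked 0.046), and the other TIMP3 probe set (1.06, limma, adjusted p = 0.122, blocked 0.036) passed with shRNA2.

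Of 15 genes for activators and surface partners, 9 were named, with 12 probe sets, of which 4 near-identical ones were of the collagen receptor DDR1. By limma 0 of these 12 passed with either shRNA (1 and 3 at an unadjusted p under 0.05), and the medians were 0.26 and -0.02 over probe sets, and 0.09 and -0.04 with 1 probe set per gene. BSG, which induces metalloproteinases in neighbouring cells, had differences of -0.04 and -0.00. CD44, the hyaluronan receptor that holds metalloproteinases at the cell surface, had 0.50 and -0.07 (limma, adjusted p = 0.400 and 0.910). F2R, the thrombin receptor that MMP1 can cleave, had -0.22 and -0.20, and MMP14, the membrane-type enzyme that cuts collagen at the cell surface, had -0.12 and -0.56, none past the threshold. With the block, DDR2, a receptor for fibrillar collagen, passed with shRNA2 (0.83, limma, adjusted p = 0.134, blocked 0.029).

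Of 22 AP-1, ETS and RUNX genes, 18 were named, with 20 probe sets. By limma 1 was higher with shRNA1 and 0 with shRNA2, none was lower, and the medians were -0.03 and -0.20. At an unadjusted p under 0.05 there were 6 and 5. The gene that rose with shRNA1 was RUNX2, the osteoblast factor that also drives MMP13 in bone and cartilage, with signals of 7.96 and 7.68 on the vector arrays, 8.85 and 8.68 with shRNA1, and 8.35 and 8.25 with shRNA2. Its difference was 0.95 with shRNA1 (SE 0.17, limma, adjusted p = 0.042), but leaving out any 1 of the 6 arrays gave an adjusted p between 0.0832 and 0.176, the fit of 4 arrays 0.155 and the methods' t-test 0.566. With shRNA2 it was 0.48 (limma, adjusted p = 0.182). Of the AP-1 subunits, FOSL1 had a difference of 0.73 with shRNA1 (limma, adjusted p = 0.141, blocked 0.044) and JUND one of -1.09 (limma, adjusted p = 0.428), both named after their values were seen, as was the factor ETS1. With shRNA2, FOSL1 had 0.22 and JUND -0.45, neither past the threshold. The shRNA1 arrays of JUND (7.61 and 8.76) overlapped its vector arrays (8.65 and 9.91). ETS1, at 10.49 and 10.24 on the vector arrays, 9.82 and 9.49 with shRNA1 and 9.35 and 9.63 with shRNA2, had differences of -0.71 and -0.88 (limma, adjusted p = 0.169 and 0.067, the second 0.029 with the block).

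Of 21 inducing ligands and receptors, 9 were named, with 16 probe sets, 8 of them of TNF with 7 identical. By limma 0 passed with either shRNA (2 and 3 at an unadjusted p under 0.05), with medians of 0.12 and -0.18 over probe sets. The identical TNF sets weigh on these: with the brightest probe set of each gene the medians were -0.28 and -0.37, the sign turned for shRNA1. EGFR, the receptor for EREG, HBEGF and other ligands, had differences of 0.08 and -0.37 (limma, adjusted p = 0.948 and 0.497). EREG, the ligand epiregulin, named after its values were seen, had signals of 10.47 and 9.83 on the vector arrays, 9.24 and 8.36 with shRNA1, and 8.76 and 8.58 with shRNA2. All 4 shRNA arrays were below both vector arrays, and the differences of -1.35 and -1.48 had an adjusted p of 0.116 and 0.065 in limma. With the block they passed, at 0.007 and 0.004, as did the cytokine LIF with shRNA2 (-0.81, limma, adjusted p = 0.105, blocked 0.045).

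Of 16 substrate genes, 6 were named, with 6 probe sets, none of them a fibrillar collagen. By limma 0 passed with either shRNA (1 with each at an unadjusted p under 0.05), with medians of 0.04 and 0.02. FN1, the matrix protein fibronectin, had signals of 11.22 and 10.82 on the vector arrays, 11.92 and 11.76 with shRNA1, and 10.52 and 10.32 with shRNA2. The shRNA1 arrays lay above and the shRNA2 arrays below the vector arrays, and hairpins on opposite sides of vector were seen for 4.74% of all named probe sets. The differences of 0.82 and -0.60 had an adjusted p of 0.0997 and 0.148 in limma, the former 0.025 with the block. IGFBP3, a growth factor binding protein, had differences of -0.16 and 0.04.

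**Figure D3:**
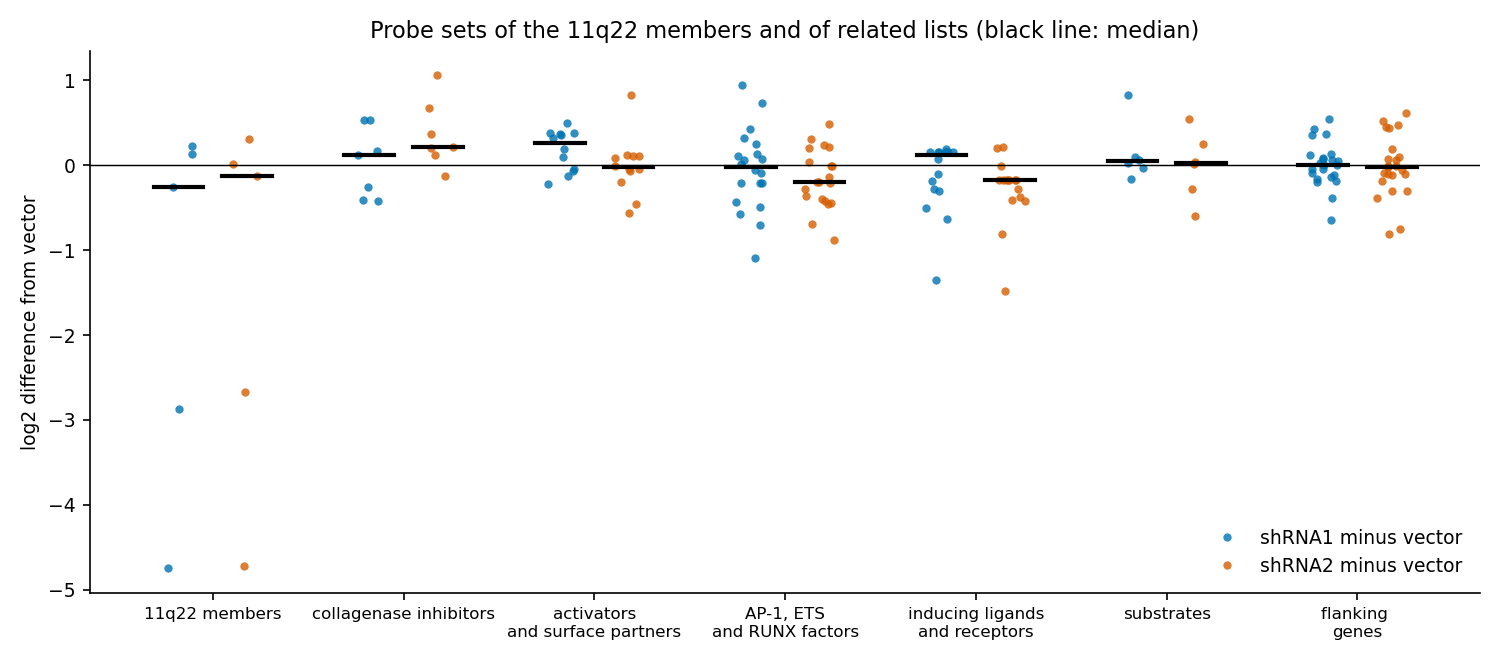
Log2 difference from vector (vertical axis) of each probe set of the 11q22 members, of the lists of collagenase-related genes and of the flanking genes (horizontal axis), for shRNA1 and shRNA2. Points are fitted differences between means of 2 arrays and black lines medians; MMP1 and MMP8 lie below all other points, of which the lowest is EREG at -1.48.

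Neutrophils, macrophages and fibroblasts also make these enzymes, and their markers were read beside MMP8 and MMP12. Of 6 neutrophil genes, 5 were named (ELANE was not), and their summed signal, as log2, was 7.82 to 7.93 on the vector arrays, 7.82 to 7.99 with shRNA1 and 7.81 to 8.10 with shRNA2. For macrophages, 5 of 7 genes were named and the ranges were 11.68 to 11.71, 11.67 to 11.83 and 11.64 to 11.73. That sum is mostly CD68, at 11.47 to 11.70, since CD14, CD163, CSF1R and MARCO lay between 4.62 and 7.59 and probe sets are not on 1 scale. With shRNA2, CD14 and CSF1R were above both vector arrays (0.29 and 0.35, limma, adjusted p = 0.458 and 0.340) and MARCO below (-0.19, limma, adjusted p = 0.614). For fibroblasts 2 of 6 were named, with 5.96 to 5.99, 5.59 to 5.80 and 5.84 to 6.14. By limma 0 of these 12 probe sets passed in either comparison with vector (0 and 1 at an unadjusted p under 0.05). The 1 was the neutrophil gene LTF, at 0.33 and 0.54 (limma, adjusted p = 0.63 and 0.22), with all shRNA arrays above both vector arrays. The lowest differences of the neutrophil genes were -0.17 and -0.18. The part of these cell types in the MMP8 result was not tested beyond these values.

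The probe sets whose values ran most like MMP1 over the 6 arrays were sought among those that spanned at least 2 on the log2 scale. There were 194 of them, MMP1 itself included. These arrays share 2 vector arrays at the high end, so the correlations describe that split and carry no p. The highest Pearson r were those of NAALAD2, a peptidase (0.998), CLDN1, a tight junction claudin (0.994), CHRDL1, a BMP antagonist (0.994), ZNF521, a zinc finger protein (0.993), KRTAP2-3, a keratin-associated protein (0.993), and LPXN, a focal adhesion protein (0.990). Of the 194, with MMP1 itself left out, 36 had an r of at least 0.95 and 51 of at least 0.90. By the distance between centred values, the nearest were SLAMF7, a receptor known from lymphocytes (1.44), OLR1, a scavenger receptor (1.55), and FGF5, a growth factor (1.86). MMP8, the member with the value pattern most like that of MMP1, had an r of 0.975 and stood at rank 21 by r and rank 11 by distance (2.43). By both measures, then, several genes from outside the cluster ran closer to MMP1 on these arrays than MMP8 did.

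**Figure D4:**
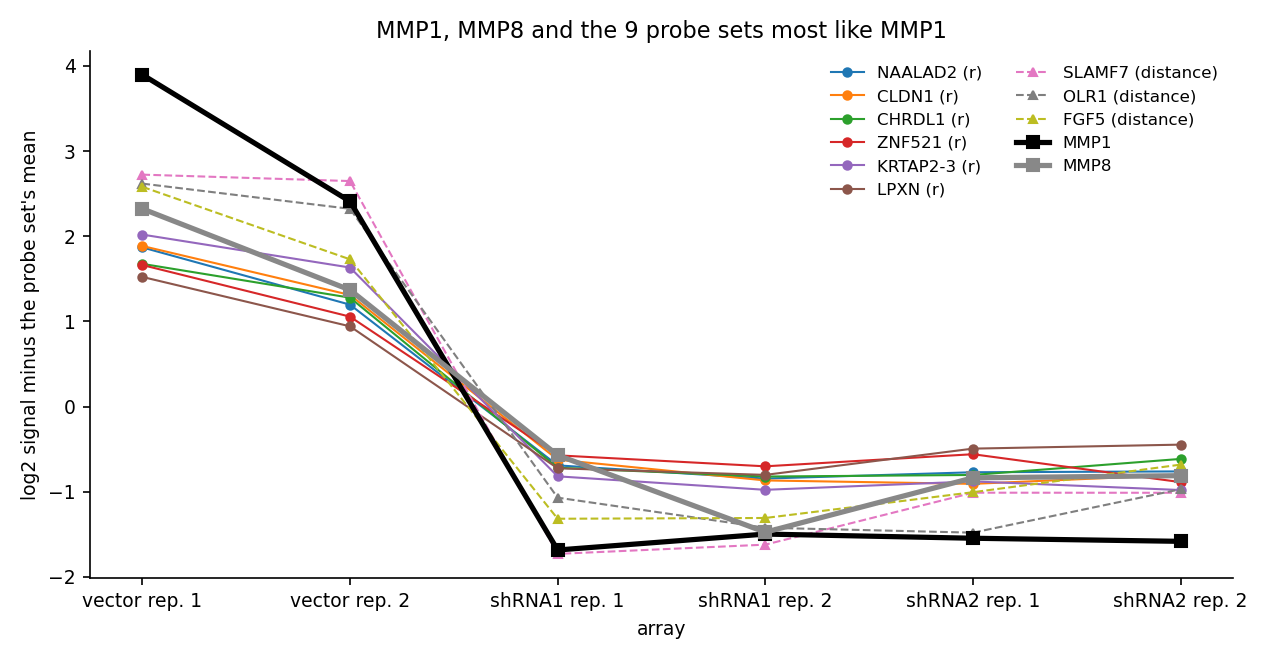
Log2 signal minus the mean of the probe set over the 6 arrays (vertical axis) on each array (horizontal axis), for MMP1, MMP8, the 6 probe sets with the highest r and the 3 at the smallest distance. Lines join the values of 1 probe set; all are high on both vector arrays, and MMP1, KRTAP2-3 and FGF5 among others are higher on vector replicate 1 than on replicate 2.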

How the data were processed

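The authors isolated RNA with TRIzol and hybridized 250 ng per sample to the array. Per the labels and the methods, they processed the scans with the Affymetrix Expression Console and RMA, with no version given, and the deposited values are log2 signals, 53617 per array, with no detection call. RMA scales the arrays to a common distribution, so a shift of most genes at once could not be seen. For further statistics on the arrays the methods name BRB-ArrayTools and no test. The small number of arrays limits the precision. Whether replicates were separate cultures is not stated beyond the 2 experiments, so the SE may leave out the spread between cultures.

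The 16098 probe sets that the platform annotation pairs with exactly 1 gene symbol were fitted together in limma 3.58.1 (R 4.3.3) as 3 group means over 6 arrays, with 3 residual and 4.16 prior degrees of freedom. The Benjamini-Hochberg adjustment ran over all of them, at a threshold of 0.05, two-sided. The script was tested on simulated data. The other 37519 probe sets entered only an alternative. Other steps used Python 3.11.15, NumPy 2.4.6, pandas 2.3.3 and Matplotlib 3.10.9. Promoters and gene order came from RefSeq tables, matched by symbol: 3 of the 7 members had a promoter sequence.

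The members, the lists and the rules were chosen with earlier results of these data and the study's list of array hits known. The rule for named genes takes all members, the flanking genes and, of each list, up to 4 genes past the threshold or otherwise the 2 with the largest mean. It adds the 6 probe sets with the highest r and the 3 nearest to MMP1. Other genes are named outside this rule, after their values were seen. Some were named where a count of 5 or fewer called for it, and others, such as F2R and JUND, stood in no such count.

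Replicate numbers were checked as pairs. The replicate differences over probe sets had correlations of 0.626 (vector with shRNA1), 0.145 (vector with shRNA2) and 0.15 (shRNA1 with shRNA2), while the series text ties no number to an experiment. The main fit has no block, and the numbers were read as pairs only for the alternative with the block, with little ground for shRNA2. The alternatives were the methods' t-test, a fit restricted to the 4 arrays in question, a prior variance that follows intensity, arrays centred or quantile normalized anew, dim probe sets left out, unnamed probe sets added, a single probe set for each gene, the block, the study's unadjusted threshold, and each array left out.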

Additional observations from a re-analysis of the deposited data

Results flagged for a closer look

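Among the genes of the lists and the flanking genes, OSMR, FN1 and BIRC2 lay on opposite sides of the vector arrays with the 2 hairpins, on every array, as did 4.74% of all named probe sets. OSMR, a receptor subunit for oncostatin M, had signals of 11.02 and 10.77 on the vector arrays, 10.73 and 10.46 with shRNA1, and 11.18 and 11.02 with shRNA2. Its difference, shRNA2 minus shRNA1, was 0.51 on the log2 scale and did not pass (limma, adjusted p = 0.246). For FN1, fibronectin, that difference was -1.42 (limma, adjusted p = 0.059, and 0.012 with the replicate block). For BIRC2, an apoptosis inhibitor from the flank of the cluster, it was -0.22 (limma, adjusted p = 0.483). None of these genes is a metalloproteinase, and none of the 5 measured metalloproteinases showed such a pattern.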

How the results depend on the processing

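The differences of MMP1 and MMP8 from vector kept their direction under all alternatives and without any 1 array, within -5.49 to -4.00 and -5.46 to -3.97 for MMP1 and within -3.35 to -2.39 and -3.15 to -2.19 for MMP8. For shRNA2 minus shRNA1, leaving out 1 array gave -0.07 to 0.12 for MMP1 and -0.25 to 0.65 for MMP8, with the sign turned to -0.067 for MMP1 without shRNA1 replicate 1 and to -0.25 for MMP8 without shRNA1 replicate 2. No alternative brought a member past the threshold there.

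Of all named probe sets, 301 passed with shRNA1. The fit of 4 arrays gave 111, the methods' t-test 1 after Benjamini-Hochberg and 38 at the study's unadjusted threshold, all probe sets 195 and the replicate block 535, and leaving out 1 array gave 111 to 138. With shRNA2, 414 passed, with 2 and 65 by the methods' t-test, 1180 with the block, and 6 to 392 without 1 array, the lowest without shRNA2 replicate 2. Between the hairpins 1 passed, with 0 in the fit of 4 arrays, 2 and 46 by the methods' t-test, 15 with the trend, 2 with centred arrays, 8 with all probe sets, 28 with 1 probe set per gene, 370 with the block, 165 at the unadjusted threshold by limma, and 0 without any 1 array. The cause of these shifts was not tested. Since the methods name no test for the arrays, the counts of 38 and 65 are not a repeat of the paper's own counts. Blocking on the replicate number changed the call of no member, and the calls against vector that it changed among the lists are given beside those genes. Between the hairpins it passed FN1, the dimmer TIMP3 probe set (1.31, limma, adjusted p = 0.143, blocked 0.035) and, of the cell markers, EPCAM (1.16, limma, adjusted p = 0.166, blocked 0.035). The methods' t-test passed 0 probe sets of each list with either shRNA, and the fit of 4 arrays passed 1 of the inducing ligands and receptors with shRNA2.

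Low signals limit MMP10, MMP12 and MMP13 on all arrays, and MMP1 and MMP8 on the shRNA arrays: these values lie in the lowest quartile of the probe sets and could not be told from background. With 2 arrays a group, leaving out 1 leaves a lone array that is assumed to vary like the other groups.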
